A study of Mus musculus with 10 samples.

Results

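The enzymes and carriers of mitochondrial fatty acid oxidation are described here in the subcutaneous fat of FF and VV mice. The set holds 37 listed genes, namely long-chain acyl-CoA synthetases, the carnitine shuttle, the acyl-CoA dehydrogenases, the later steps of beta-oxidation, the electron transfer flavoprotein and 3 ketone body enzymes. A member was read by a probe set that names 1 gene and has a value on every array, and by the one with the highest mean where a gene has several. On this rule 33 of the 37 were measured, out of 19659 genes in all. The other 4 were Acsl1 and Hadhb, which are not analysed here, and Cpt1b and Acsl3, whose probe sets also name a second gene and are given apart from the 33.

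FF mice were homozygous for the Fat-line allele at Fob3a, an obesity locus on chromosome 15, and VV mice were homozygous for the allele of the V line, a congenic line bred by repeated backcrossing to the Fat line. Both groups were untreated F2 females on chow, 5 mice each, sampled at 14 weeks of age, with 1 array for the inguinal-femoral fat of each mouse. Because the V line carries a stretch of chromosome around Fob3a, the genotype stands for all alleles in that stretch, and it is not a test of any single gene. Mice are named by group and replicate number. With 10 arrays, precision is limited by their number.

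Mitochondria burn fatty acids in repeated rounds. A long-chain fatty acid is joined to coenzyme A, passed into the mitochondrion by the carnitine shuttle, and shortened by a dehydrogenase, a hydratase, a second dehydrogenase and a thiolase, while the electron transfer flavoprotein carries electrons on to the respiratory chain. White fat mainly stores and releases fatty acids, whereas brown and beige adipocytes oxidise them to make heat, and malonyl-CoA, the precursor of fatty acid synthesis, inhibits entry at Cpt1.

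RNA of other tissues differed between the mice. Liver markers had their highest mean in VV replicate 1, 3.52 log2 units above the mean over the 10 mice, and then in VV replicate 2 (0.46), against -0.70 to -0.30 in the other mice. Skeletal muscle markers were highest in FF replicate 1 (1.81), against at most 0.24 elsewhere. None of 17 liver and none of 16 muscle markers passed the threshold in limma, where 0.753% of all genes did. At an unadjusted p under 0.05 there were 0 liver markers and 1 muscle marker, higher in FF. Of all genes, 10.2% were higher and 6.18% lower at that level. Their directions were not balanced: 15 of the 17 liver markers had lower means in FF (median difference -1.05). All 16 muscle markers had higher means in FF (median difference 0.43). Over all 19659 genes, 9765 had lower and 9894 higher means in FF. The white adipocyte marker Adipoq ran from 13.25 to 13.41 in FF mice and from 13.29 to 13.44 in VV mice, so the labelled tissue was there in every sample. Deptor, the gene named in the title of the series, was higher in FF fat (10.88 ± 0.07 in FF mice against 10.34 ± 0.10 in VV mice, log2, SD, n = 5 each, adjusted p = 0.00553 in limma).

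FF fat held more mRNA of several fatty acid oxidation enzymes than VV fat. Eci1, Hadha, Crat and Acadvl passed an adjusted p of 0.05 in limma, all of them higher in FF, by 1.22-fold to 1.73-fold, and no measured member passed it in the lower direction. These 4 of 33 are 12.1% of the members, where 0.753% of all genes passed in either direction, 0.621% higher and 0.132% lower in FF. At an unadjusted p under 0.05, 20 members were higher and 3 were lower, against 10.2% and 6.18% of all genes. The median FF minus VV difference was 0.23 log2 units over the 33 members and 0.00 over all genes. The calls were near the threshold: when a single mouse was left out, 0 members passed if it was FF mouse 1, 2 or 5 or VV mouse 2, 4 or 5, although 17 to 21 members were then higher at an unadjusted p under 0.05. Leaving out FF mouse 4 or VV mouse 3 left 1 member past the threshold, leaving out VV mouse 1 gave 5, and leaving out FF mouse 3 gave 9. The number of all genes past the threshold ran from 7 to 379 in the same fits. The differences themselves stayed between 0.43 and 0.53 for Eci1, 0.45 and 0.58 for Hadha, 0.26 and 0.31 for Crat and 0.66 and 0.89 for Acadvl, and the median over the members stayed between 0.190 and 0.269. With VV replicates 1 and 2 both left out 0 members passed and 20 were higher at an unadjusted p under 0.05, and with FF replicate 1 and VV replicate 1 left out Eci1 alone passed.

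**Figure D1:**
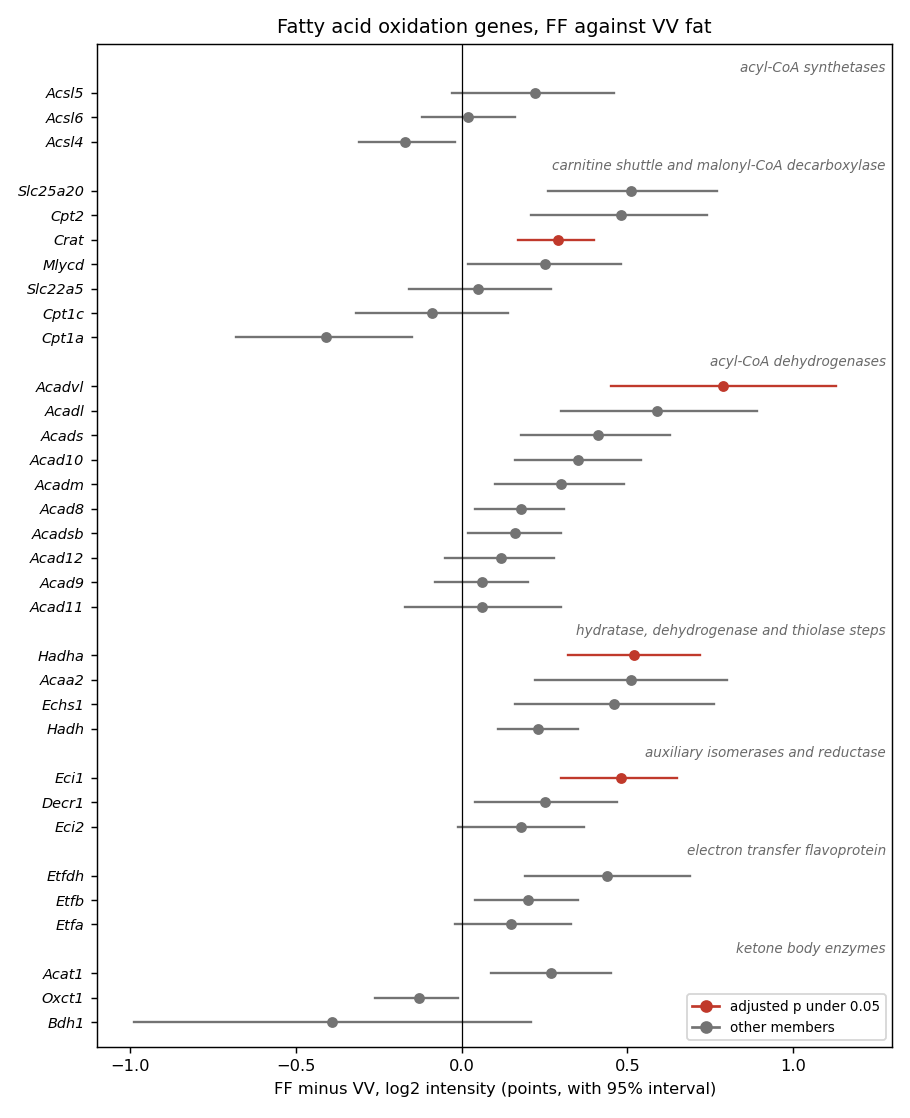
FF minus VV difference of each of the 33 measured members on the log2 scale (horizontal axis), grouped by role, with 95% intervals from limma; the members past an adjusted p of 0.05 are in red. All 10 acyl-CoA dehydrogenases lie right of 0, while Cpt1a, Acsl4, Oxct1, Bdh1 and Cpt1c lie left of it.

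Eci1 encodes an enoyl-CoA isomerase that shifts double bonds so that unsaturated fatty acids can be oxidised. Its log2 intensity was 10.67, 10.82, 10.60, 10.75 and 10.74 in FF replicates 1 to 5, against 10.45, 10.12, 10.36, 10.03 and 10.24 in VV replicates 1 to 5. Every FF mouse lay above every VV mouse. The difference was 0.48 ± 0.08 (SE), a 1.39-fold higher level in FF (95% interval 1.23 to 1.57, adjusted p = 0.0352 in limma). The call held when FF mouse 3, VV mouse 1 or VV mouse 3 was left out and was lost without any other single mouse, where the adjusted p reached 0.0965 at most.

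Hadha encodes the alpha subunit of the mitochondrial trifunctional protein, which carries out the hydratase and second dehydrogenase steps on long chains. It measured 11.94, 12.08, 11.80, 12.32 and 12.04 in FF mice, against 11.59, 11.55, 11.60, 11.34 and 11.46 in VV mice. The groups did not overlap, and the lowest FF mouse was replicate 3. The difference of 0.52 ± 0.09 (SE) is a 1.44-fold higher level in FF (1.25 to 1.65, adjusted p = 0.0352 in limma). It was lost when any mouse other than FF mouse 3, FF mouse 4 or VV mouse 1 was left out, with an adjusted p of 0.0965 at most. Its partner subunit gene, Hadhb, was not analysed here.

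Crat encodes carnitine acetyltransferase, which moves acetyl groups between coenzyme A and carnitine. Its values were 12.41, 12.29, 12.33, 12.50 and 12.46 in FF mice, against 12.09, 12.12, 12.18, 12.15 and 12.02 in VV mice. Both groups were tight and did not overlap, with SDs of 0.09 in FF and 0.06 in VV. The difference was small, 0.29 ± 0.05 (SE) or 1.22-fold (1.13 to 1.32, adjusted p = 0.0402 in limma). The call held without FF replicate 3 and was lost without any other mouse, with an adjusted p of 0.0968 at most.

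Acadvl encodes the very-long-chain acyl-CoA dehydrogenase, which opens the oxidation of long chains at the inner membrane. It showed the largest difference among the 33, with 9.77, 9.98, 9.58, 10.52 and 10.07 in FF mice, against 9.44, 9.09, 9.31, 8.97 and 9.17 in VV mice. FF replicate 4 was the highest and VV replicate 4 the lowest, and the groups did not overlap. FF exceeded VV by 0.79 ± 0.16 (SE), or 1.73-fold (1.36 to 2.19, adjusted p = 0.0495 in limma). The call held without FF replicate 3 or VV replicate 1 and was lost without any other mouse, with an adjusted p of 0.123 at most.

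**Figure D2:**
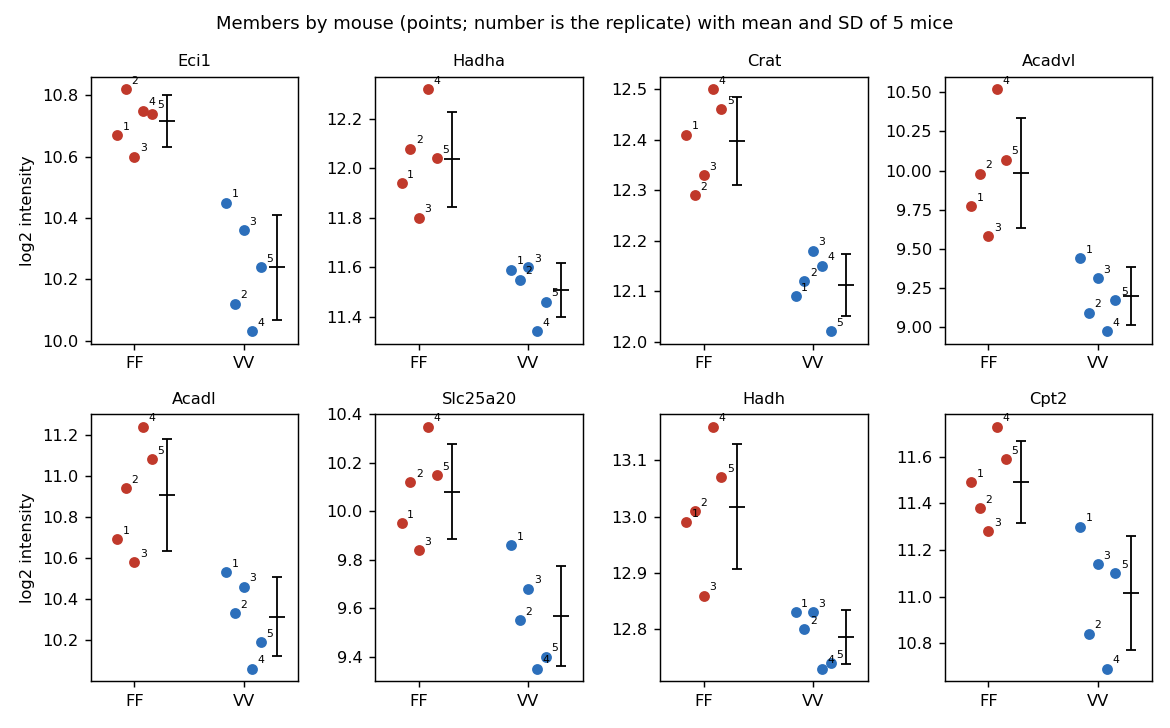
Log2 intensity (vertical axes, not starting at 0) of 8 members in each FF and VV mouse, with the replicate number beside each point and the mean and SD of 5 mice as bars. For Eci1, Hadha, Crat, Acadvl, Acadl and Hadh every FF mouse lies above every VV mouse, while for Slc25a20 and Cpt2 1 VV mouse, replicate 1, reaches into the FF range.

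Promoter sequence is shown for the called members that have a window in the RefSeq table (build GRCm38.p6), and for Cpt1a because its difference had the opposite sign. Each line is the 250 bases before the transcription start, 5′ to 3′ on the gene's own strand. The regions are chr17:24426433-24426682 on the plus strand for Eci1, chr5:30154981-30155230 on the minus strand for Hadha, chr11:70015429-70015678 on the minus strand for Acadvl and chr19:3323051-3323300 on the plus strand for Cpt1a. Capitals mark matches on either strand to the nuclear receptor half-site AGGTCA, the GC box GGGCGG or the CCAAT box.
Eci1: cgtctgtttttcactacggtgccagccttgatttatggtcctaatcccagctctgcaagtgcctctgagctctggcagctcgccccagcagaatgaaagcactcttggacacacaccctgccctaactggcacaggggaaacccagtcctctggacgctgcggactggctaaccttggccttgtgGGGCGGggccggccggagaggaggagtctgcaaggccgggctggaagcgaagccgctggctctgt
Hadha: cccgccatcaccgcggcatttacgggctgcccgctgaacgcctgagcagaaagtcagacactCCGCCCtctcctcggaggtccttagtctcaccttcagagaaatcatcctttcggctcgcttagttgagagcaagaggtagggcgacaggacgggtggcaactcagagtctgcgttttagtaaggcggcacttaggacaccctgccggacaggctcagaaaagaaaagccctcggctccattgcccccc
Acadvl: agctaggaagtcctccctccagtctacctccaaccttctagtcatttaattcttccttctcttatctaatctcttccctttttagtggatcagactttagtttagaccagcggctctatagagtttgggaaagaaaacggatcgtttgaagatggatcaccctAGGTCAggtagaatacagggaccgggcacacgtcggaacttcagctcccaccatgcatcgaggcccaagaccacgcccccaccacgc
Cpt1a: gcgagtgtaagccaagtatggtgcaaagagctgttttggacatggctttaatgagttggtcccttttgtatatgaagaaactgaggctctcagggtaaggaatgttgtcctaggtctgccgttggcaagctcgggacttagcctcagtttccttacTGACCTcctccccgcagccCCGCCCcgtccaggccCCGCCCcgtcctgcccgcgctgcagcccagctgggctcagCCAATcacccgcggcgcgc
The window of Eci1 holds a GC box that begins 65 bases before the start, and that of Hadha holds one that begins 188 bases before it. The window of Acadvl holds a half-site that begins 87 bases before the start. Cpt1a has a half-site at 94, GC boxes at 75 and 59 and a CCAAT box at 19 bases before its start. Hadha and Hadhb lie head to head, with starts 273 bases apart, so that their windows of 300 bases share 228 bases.

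Windows were at hand for 31 of the listed members, 35 windows in all, each reaching from 250 bases before the start to 50 after it. The half-site AGGTCA was found in 6 of the 35 (17.1%), close to its 16.3% among all 32851 windows. GGGCGG was found in 25 (71.4%, in 23 members) against 35.7% of all windows, and the median GC content was 61.3% in the members' windows against 52.7% in all. CCAAT was found in 15 (42.9%) against 37.4%. The sequence GCGCATGCGC, the site of the factor NRF1, was found in 3 windows, those of Acad10, Acad12 and Etfdh (8.57% against 0.971%). The element TCAAGGTCA of estrogen-related receptors, which contains the half-site, was found in Acsl6 (1 window, 2.86% against 0.423%), and the direct repeat AGGTCANAGGTCA, which holds the half-site at both ends, was found in 0 of the 35 against 0.0396% of all. All were searched on both strands, and they describe letters only.

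The acyl-CoA synthetases, which activate fatty acids, had 0 of 3 measured members past the threshold in limma, and 1, Acsl4, had an unadjusted p under 0.05. Acsl5 averaged 9.54 ± 0.23 in FF mice against 9.33 ± 0.15 in VV mice (SD, n = 5 each) and differed by 0.22. Acsl4, which prefers arachidonic acid, averaged 9.07 ± 0.13 in FF and 9.23 ± 0.08 in VV, a difference of -0.17 (adjusted p = 0.253 in limma). Acsl6 was dim, at 6.29 ± 0.11 in FF and 6.27 ± 0.10 in VV, and the sign of its difference of 0.02 turned when FF mouse 1 (-0.025) or VV mouse 2 (-0.001) was left out. The probe set that names both Acsl3 and Utp14b read 7.84, 7.31, 7.04, 8.02 and 7.13 in FF mice, against 7.05, 7.20, 7.06, 6.93 and 7.17 in VV mice (difference 0.38, adjusted p = 0.338 over all probe sets in limma), with FF replicates 1 and 4 alone above the others by over 0.5 log2 units.

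In the carnitine shuttle Crat passed the threshold, and both inner membrane steps had higher means in FF mice without passing it. Slc25a20, the carnitine-acylcarnitine carrier of the inner membrane, had 9.95, 10.12, 9.84, 10.35 and 10.15 in FF mice, against 9.86, 9.55, 9.68, 9.35 and 9.40 in VV mice. VV replicate 1 lay just above the lowest FF mouse. The difference was 0.51 ± 0.11 (SE), or 1.43-fold, with an adjusted p of 0.0650 in limma, short of the threshold; it passed without FF replicate 3 or VV replicate 1. Cpt2, which returns the acyl group to coenzyme A inside the mitochondrion, had 11.49, 11.38, 11.28, 11.73 and 11.59 in FF mice, against 11.30, 10.84, 11.14, 10.69 and 11.10 in VV mice. Its difference of 0.48 ± 0.12 (SE), 1.39-fold, had an adjusted p of 0.0844 in limma. Mlycd, which degrades malonyl-CoA, differed by 0.25 (adjusted p = 0.264). Slc22a5, the plasma membrane carnitine transporter, differed by 0.05, and its sign turned when FF mouse 5 (-0.009) or VV mouse 5 (-0.007) was left out. Cpt1c, an isoform of neurons, differed by -0.09. Neural markers (3 measured) averaged 5.96 to 6.09 in FF mice and 6.02 to 6.14 in VV mice.

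Cpt1a and the probe set that covers Cpt1b differed between the groups with opposite signs. Cpt1a, the liver-type isoform of the enzyme that makes acylcarnitine at the outer membrane and that malonyl-CoA inhibits, measured 9.99, 10.38, 10.55, 10.25 and 10.47 in FF mice, against 10.92, 10.99, 10.58, 10.69 and 10.53 in VV mice. The groups overlapped at FF replicate 3 and VV replicate 5. The difference was -0.41 ± 0.12 (SE), a ratio of FF to VV of 0.750 (0.625 to 0.900), with an adjusted p of 0.116 in limma, so it did not pass. The 2 highest Cpt1a values were those of VV replicates 1 and 2, the mice with the highest liver marker means. With FF replicate 1 and VV replicate 1 left out the difference was -0.29 (adjusted p = 0.247), and without VV replicates 1 and 2 it was -0.27 (adjusted p = 0.337).

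The muscle-type and brown-fat isoform Cpt1b was read by probe set 10431564, which also names Gm44502, a non-coding RNA, and its signal cannot be assigned to either. Both genes lie on chromosome 15, as does Fob3a, and whether they lie in the stretch that differs between FF and VV was not tested. It measured 9.75, 10.56, 9.57, 11.24 and 10.60 in FF mice, against 7.79, 8.44, 8.0, 7.26 and 7.54 in VV mice. The lowest FF mouse was over 1 log2 unit above the highest VV mouse. FF averaged 10.34 ± 0.68 and VV 7.81 ± 0.45 (SD, n = 5 each), so that FF exceeded VV by 2.54 ± 0.31 (SE), a 5.81-fold higher level in FF (3.59 to 9.38). In a limma fit over all 25689 valued probe sets, of which 0.401% passed the threshold, its adjusted p was 0.0203 and its rank by p was 7. It was short of the threshold when FF mouse 2 (0.0618), FF mouse 5 (0.0575), VV mouse 4 (0.0576) or VV mouse 5 (0.0530) was left out. FF replicate 1, which had the highest muscle marker mean, had the second lowest value among the FF mice. Without FF replicate 1 and VV replicate 1 the difference was 2.68 (adjusted p = 0.0371). All 16 muscle markers had higher means in FF, but by mouse their mean was 1.81 in FF replicate 1. It was -0.09, -0.48, -0.17 and 0.10 in FF replicates 2 to 5, against -0.39 to 0.24 in VV mice. The part of muscle RNA in the signal of this probe set was not tested. Gm44502 is also named by the probe set of Chkb, a choline kinase gene also on chromosome 15, which differed by 0.27 (adjusted p = 0.229).

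Within each mouse, the probe set of Cpt1b and Gm44502 minus Cpt1a was -0.24, 0.19, -0.98, 0.98 and 0.12 log2 units in FF mice, against -3.13, -2.56, -2.57, -3.42 and -3.0 in VV mice. Probe sets differ in brightness per molecule, so these values do not say which isoform was the more abundant, and only their change between groups is read. FF exceeded VV by 2.95, where FF mice averaged 0.02 ± 0.71 and VV mice -2.94 ± 0.37 (SD, n = 5 each). By exact permutation of the mice between groups, two-sided, p was 0.00794, the lowest value that 5 against 5 can give. The pair was chosen with earlier results of these data known. The probe set of Cpt1b and Gm44502 alone already separated the groups, so this p is not separate support for a shift between isoforms. The difference stayed between 2.71 and 3.20 with any 1 mouse left out.

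**Figure D3:**
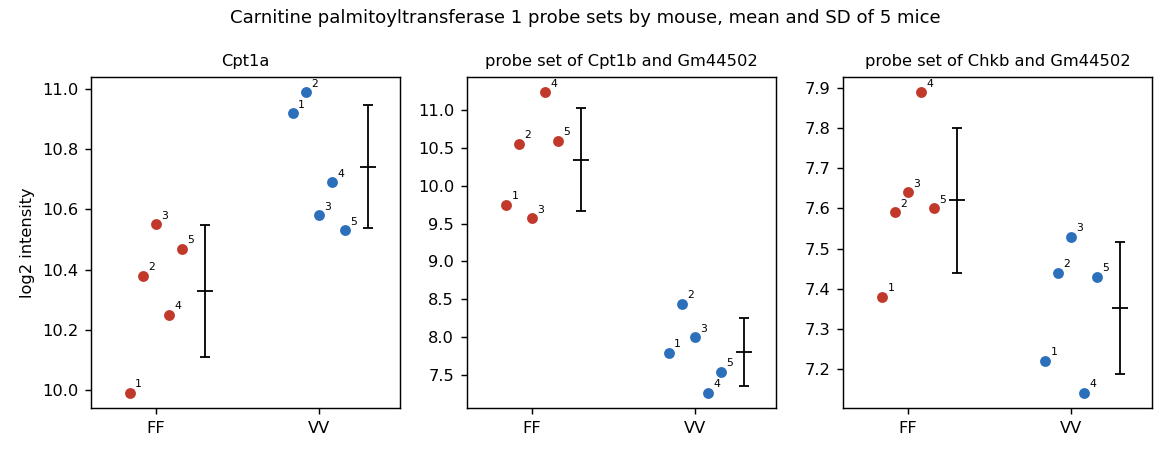
Log2 intensity (vertical axes, each with its own range and not starting at 0) of Cpt1a, of the probe set of Cpt1b and Gm44502 and of the probe set of Chkb and Gm44502 in each FF and VV mouse; numbers are replicates and bars are the mean and SD of 5 mice. FF lies above VV by 2.54 log2 units in the middle panel and differs from it by -0.41 in the left panel.

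The acyl-CoA dehydrogenases, which open each round of oxidation for a given chain length, all had higher means in FF mice, 10 of 10. Over all 19659 genes, 9894 did. Their median difference was 0.24, and 7 of the 10 were higher at an unadjusted p under 0.05, against 10.2% of all genes. Beside Acadvl, which passed the threshold, the long-chain enzyme Acadl had 10.69, 10.94, 10.58, 11.24 and 11.08 in FF mice, against 10.53, 10.33, 10.46, 10.06 and 10.19 in VV mice. Every FF mouse lay above every VV mouse, by 0.59 ± 0.13 (SE) in the mean and 1.51-fold, with an adjusted p of 0.0651 in limma. The short-chain enzyme Acads had 10.62, 10.53, 10.25, 10.77 and 10.84 in FF mice, against 10.30, 10.07, 10.28, 10.11 and 10.22 in VV mice. FF replicate 3 lay within the VV range, and the difference was 0.41 ± 0.10 (SE, adjusted p = 0.0844). Acad10 had 7.90, 7.74, 7.75, 7.65 and 7.72 in FF mice, against 7.68, 7.24, 7.37, 7.49 and 7.24 in VV mice. Its difference was 0.35 ± 0.09 (SE, adjusted p = 0.0793), with VV replicate 1 alone reaching the FF range.

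The medium-chain enzyme Acadm averaged 11.22 ± 0.17 in FF mice against 10.93 ± 0.13 in VV mice (SD, n = 5 each) and differed by 0.30 (adjusted p = 0.128 in limma). The difference was 0.18 for Acad8 and 0.16 for Acadsb, which act on the breakdown products of valine and isoleucine, and neither passed. Acad12 differed by 0.12, Acad11 by 0.06 and Acad9, also an assembly factor of respiratory complex I, by 0.06, with unadjusted p values of 0.145, 0.566 and 0.350. The size of the difference therefore ran from 0.06 to 0.79 within this one family, and the largest 2 were those of the very-long-chain and long-chain enzymes.

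For the steps after the first dehydrogenase, 4 of 4 measured members had an unadjusted p under 0.05 in the higher direction, against 10.2% of all genes. Of these Hadha passed the threshold. Hadh, the dehydrogenase for shorter chains, had 12.99, 13.01, 12.86, 13.16 and 13.07 in FF mice, against 12.83, 12.80, 12.83, 12.73 and 12.74 in VV mice. The groups did not overlap, and the difference was 0.23 ± 0.06 (SE, 1.17-fold, adjusted p = 0.0756 in limma). The thiolase Acaa2 had 11.77, 12.07, 11.71, 12.46 and 12.17 in FF mice, against 11.72, 11.53, 11.57, 11.42 and 11.39 in VV mice. VV replicate 1 just exceeded FF replicate 3, and the difference was 0.51 ± 0.13 (SE, 1.42-fold, adjusted p = 0.0902). Echs1, the short-chain hydratase, averaged 10.86 ± 0.22 in FF mice against 10.40 ± 0.27 in VV mice (SD, n = 5 each) and differed by 0.46 (adjusted p = 0.128).

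Among the auxiliary enzymes for unsaturated chains, Eci1 passed the threshold, and Decr1, the dienoyl-CoA reductase, and Eci2, a second isomerase, did not, with differences of 0.25 (adjusted p = 0.227 in limma) and 0.18 (adjusted p = 0.328). Etfdh, which hands electrons from the flavoprotein to ubiquinone, had 10.71, 10.88, 10.64, 11.20 and 10.90 in FF mice, against 10.61, 10.42, 10.53, 10.13 and 10.47 in VV mice. Its groups did not overlap, with a difference of 0.44 ± 0.11 (SE, 1.35-fold, adjusted p = 0.0902). The 2 subunits of the flavoprotein itself differed less, Etfb by 0.20 (adjusted p = 0.198) and Etfa by 0.15 (adjusted p = 0.369).

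The ketone body enzymes did not share a direction. Acat1, the mitochondrial acetoacetyl-CoA thiolase, averaged 10.99 ± 0.14 in FF mice against 10.72 ± 0.14 in VV mice (SD, n = 5 each) and differed by 0.27 (adjusted p = 0.138 in limma). Oxct1, the transferase that lets tissues use ketone bodies, averaged 10.21 ± 0.11 in FF and 10.34 ± 0.03 in VV, a difference of -0.13 (adjusted p = 0.257); it lies on chromosome 15, as does Fob3a. Bdh1, the hydroxybutyrate dehydrogenase, ran from 6.11 to 6.39 in FF mice, against 6.34, 6.24, 6.39 and 6.55 in VV replicates 2 to 5 and 7.92 in VV replicate 1, the mouse with the highest liver marker mean. Its difference was -0.39 with all mice (adjusted p = 0.527) and -0.11 without FF replicate 1 and VV replicate 1.

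In all, 7 members had every FF mouse above every VV mouse, namely the 4 called ones with Acadl, Hadh and Etfdh, where 3.36% of all genes did so; none had every FF mouse below every VV mouse, where 1.34% of all genes did. FF replicate 4 held the highest value of 18 of the 33 members, and the lowest values were held by VV replicate 4 for 15 and by VV replicate 5 for 8. The mean over the 33 members, each centred on its mean over the 10 mice, was 0.05, 0.09, -0.01, 0.25 and 0.18 in FF replicates 1 to 5, against 0.06, -0.15, -0.06, -0.23 and -0.18 in VV replicates 1 to 5. VV replicate 1 thus lay above FF replicates 1 and 3, and the 2 groups overlapped in this mean.

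Thermogenic adipocyte markers were also measured in each mouse. A list of 11 such markers, Ucp1 among them and none of them a member, had means of 0.40, 0.95, 0.26, 1.20 and 0.75 in FF mice, against -0.72, -0.41, -0.49, -1.20 and -0.73 in VV mice, so FF replicate 4 was the highest and VV replicate 4 the lowest, as in the mean over the members. VV replicate 1 differed between both means, with 0.06 for the members, above FF replicates 1 and 3, and -0.72 for the thermogenic markers, below every FF mouse. That mouse also had the highest liver marker mean (3.52), and the part of liver RNA in its mean over the members was not tested. Of the 11 thermogenic markers, 5 passed the threshold higher in FF and 0 lower, where 0.621% and 0.132% of all genes did, with a median difference of 1.54. The 5 were Ucp1 (3.96), Cidea (2.96), Cox7a1 (2.45), Cox8b (1.93) and Acot11 (1.71). The rest differed less, from 1.54 for Otop1 to 0.27 for Prdm16, 0.17 each for Ebf2 and Dio2 and 0.02 for Zic1. With single mice left out 1 to 7 of the 11 passed: 1 without FF mouse 2, FF mouse 5 or VV mouse 5, 2 without VV mouse 2 or 4, 3 without FF mouse 1 or VV mouse 3, and 7 without FF mouse 3. Of 11 measured white adipocyte markers 0 passed in limma, with a median difference of 0.05. At an unadjusted p under 0.05, 4 were higher and 1 was lower, against 10.2% and 6.18% of all genes. Of 13 leukocyte markers all 13 had lower means in FF, with a median difference of -0.39. At an unadjusted p under 0.05, 12 of them were lower, against 6.18% of all genes. Every FF mouse lay below every VV mouse for 4 of them, against 1.34% of all genes. Of the 13 leukocyte markers 1, Ptprc, passed the threshold (-0.68, adjusted p = 0.0422 in limma), where 0.132% of all genes passed lower in FF. Its call was kept in 3 of 10 fits with a mouse left out. The leukocyte list averaged -0.39 to -0.01 in FF mice and 0.14 to 0.56 in VV mice. Of 10 mammary epithelium, 6 endothelium and 7 adipose stroma markers 0 passed in limma. At an unadjusted p under 0.05, 2, both of stroma, were lower in FF, against 6.18% of all genes. Fewer cells of a type and less RNA per cell cannot be told apart in whole tissue, and the part of these cell types in the members' differences was not tested.

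**Figure D4:**
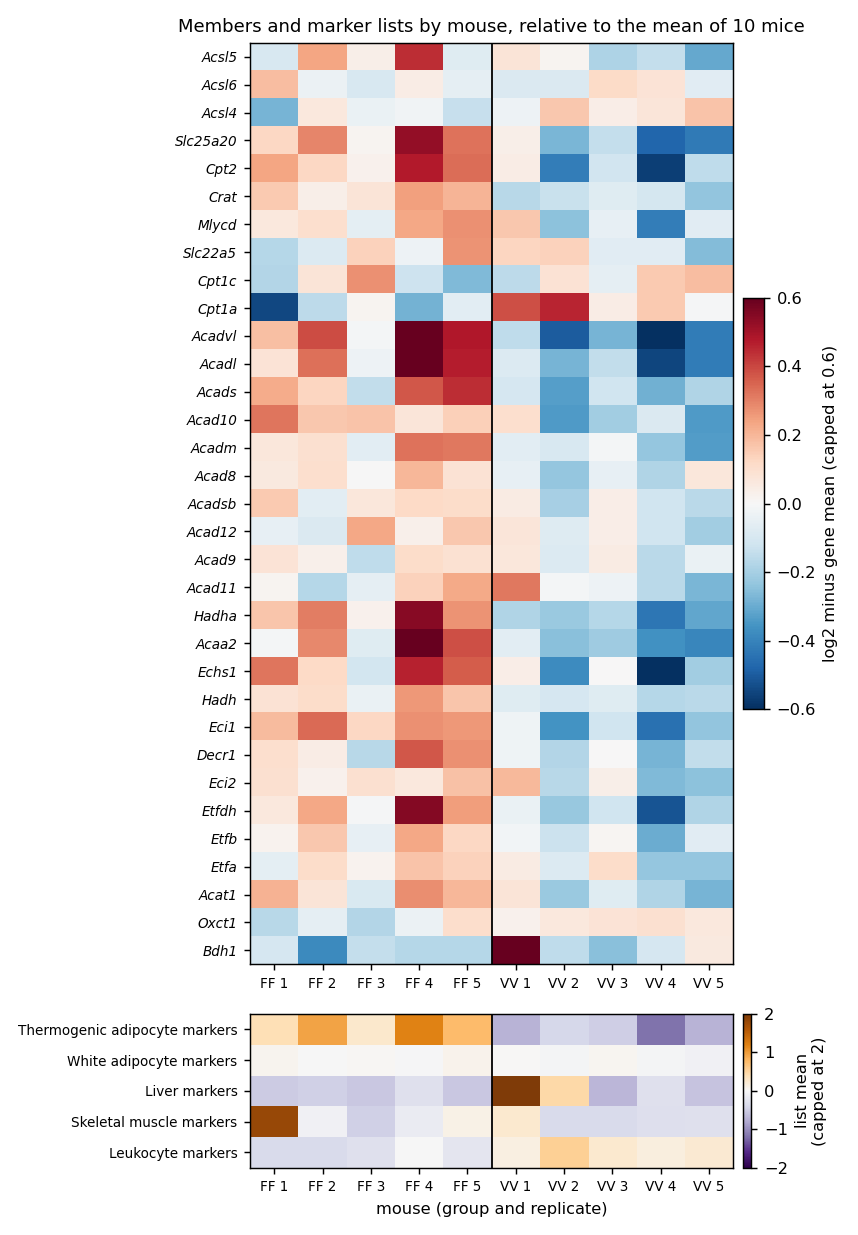
Upper panel, log2 intensity of each of the 33 members (rows, by role) in each mouse (columns, FF left and VV right) minus its mean over the 10 mice, capped at 0.6; lower panel, the mean of 5 marker lists on the same footing, capped at 2. FF replicate 4 holds the highest value of 18 members and VV replicate 4 the lowest of 15, and liver markers stand out in VV replicate 1 (3.52) and muscle markers in FF replicate 1 (1.81).

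Genes that surround the pathway were counted in lists beside the members. Of 101 measured genes in these lists, 7 passed the threshold higher in FF and 0 lower (6.93%, against 0.753% of all genes). At an unadjusted p under 0.05, 39 were higher and 0 lower, against 10.2% and 6.18% of all genes. The count was 0 without VV mouse 2, 1 without FF mouse 1, FF mouse 5 or VV mouse 5, 2 without FF mouse 2 or VV mouse 4, 3 without FF mouse 4 and 12 without FF mouse 3, with 31 to 49 higher at an unadjusted p under 0.05 whichever mouse was left out. The largest difference was in the control of malonyl-CoA, a list with 2 of 10 measured genes past the threshold. Acacb, the mitochondrial acetyl-CoA carboxylase that makes the malonyl-CoA that inhibits Cpt1, had 11.41, 11.00, 10.77, 11.47 and 10.98 in FF mice, against 9.89, 9.60, 10.10, 9.24 and 10.11 in VV mice. The groups lay over 0.5 log2 units apart, with a difference of 1.34 ± 0.18 (SE, 2.54-fold, adjusted p = 0.0219 in limma), and it fell short of the threshold when FF mouse 1, FF mouse 2 or VV mouse 2 was left out, with an adjusted p of 0.0806 at most. Prkag2, a regulatory subunit of the AMP-activated kinase that inhibits Acacb, was higher by 0.25 (adjusted p = 0.0352), a call kept without FF mouse 3 or VV mouse 3 and lost without any other mouse.

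Among the transcriptional regulators, 2 of 15 measured passed, where 0.753% of all genes did. These were the coactivators of mitochondrial genes Ppargc1a and Ppargc1b. Ppargc1a had 8.14, 8.84, 8.50, 8.27 and 8.56 in FF mice, against 7.38, 7.19, 7.66, 7.70 and 7.44 in VV mice, without overlap. Its difference was 0.99 ± 0.14 (SE, 1.98-fold, adjusted p = 0.0219 in limma), and that of Ppargc1b was 0.61 (adjusted p = 0.0352). The call of Ppargc1a was lost without FF mouse 5, VV mouse 2 or VV mouse 5 (adjusted p of 0.0718 at most), and that of Ppargc1b was kept without FF mouse 2, FF mouse 3 or VV mouse 1 and lost otherwise. Ppara, the nuclear receptor of fatty acids, on chromosome 15, ran from 8.92 to 9.81 in FF mice, against 7.96 to 9.56 in VV mice, where the highest was VV replicate 1, and its difference of 0.81 did not pass (adjusted p = 0.171).

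Single members of other lists passed, where 0.753% of all genes did. Of 15 other acyl-CoA synthetases 1 passed, the medium-chain enzyme Acsm3 (1.05, adjusted p = 0.0334 in limma). Of 12 known target genes of Ppara 1 passed, the mitochondrial thioesterase Acot2 (0.34, adjusted p = 0.0352). Of 3 sirtuins 1 passed, the mitochondrial deacylase Sirt5 (0.28, adjusted p = 0.0366). With single mice left out, Acsm3 stayed past the threshold in 4 of 10 fits, Acot2 in 3 and Sirt5 in 1, that without FF mouse 3. Pdk4, the kinase that holds back pyruvate oxidation and also a listed target of Ppara, differed by 0.94 and was short of the threshold (adjusted p = 0.0617). Of the 12 targets 7 had higher and 5 lower means in FF. The lowest was Cyp4a10 (-1.11), which read 9.66 in VV replicate 1. Over all genes, 16.4% had an unadjusted p under 0.05 in either direction. Peroxisomal oxidation had 0 of 20 past the threshold and 5 at an unadjusted p under 0.05, with differences of 0.20 for Acot8 and 0.26 for Ech1. The short, odd and branched chain list had 0 of 9 past it and 5 at an unadjusted p under 0.05, with 0.38 for Pccb, a subunit of propionyl-CoA carboxylase, and 0.21 for Mmut, the methylmalonyl-CoA mutase. Ketogenesis had 0 of 7 and 1, with 0.72 for Aacs, the cytosolic acetoacetyl-CoA synthetase, and 0.23 for Slc16a7, a monocarboxylate carrier. Flavin supply had 0 of 5 and 2, with 0.31 each for Etfrf1 and the mitochondrial folate and flavin carrier Slc25a32, which is on chromosome 15. Carnitine synthesis and transport had 0 of 5 and 0, with 0.11 for Aldh9a1 and -0.49 for Bbox1, which read 7.31 in VV replicate 1 and at most 5.20 in any other mouse.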

How the data were processed

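Total RNA of inguinal-femoral fat from 10 mice was labelled with biotin and hybridised to one-colour arrays, per the labels' protocols. The authors deposited log2 intensities per probe set from RMA, per the submitters' processing notes, a method that normalises between arrays. Its version was not given in the sources used here, and neither was the genome build. Of 35557 probe sets 25689 had a value on all arrays and 9868 on none. Of those valued, 20777 named 1 gene, 232 several and 4680 none in the platform table; the first kind gave 19659 genes, 566 of them by the brightest of several probe sets. The lowest value was 3.56 and the highest 14.2. Array medians lay between 7.15 and 7.17 in FF and between 7.18 and 7.21 in VV, so every FF median was below every VV median.

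Groups were taken from the sample titles, and each array is a separate animal. The comparison of FF with VV used limma 3.58.1 in R 4.3.3 (lmFit, then eBayes, without covariates, two-sided). P-values were adjusted by Benjamini and Hochberg's method over the 19659 genes, and 0.05 was the threshold. The probe sets shared by 2 genes were tested in the same fit over all valued probe sets, added after seeing the data. Differences are FF minus VV in log2 units. The members, lists, tests and alternatives were chosen with earlier results of these data known, and so the lists have no test of their own. Every mouse's value is printed for members past the threshold, for Cpt1a and the probe set of Cpt1b, for the 8 further members with the smallest p, for the probe set of Acsl3 and for Acacb and Ppargc1a, the last 3 chosen after their values were seen. Of each companion list, members past the threshold or the 2 with the smallest p are named; Ppara and Pdk4 were added after seeing their values. Cpt1b, Pdk4, Slc27a2 and Ppargc1a are also in a member or companion list and were left out of the thermogenic list. Elovl3, which is in none of those lists, was left out too. The fit was also run on simulated data with independent noise for each gene. Such data do not mimic RNA of other tissues in single mice, so that run does not bear on it. Promoter windows came from RefSeq (GRCm38.p6), and matplotlib 3.10.9 under Python 3.11.15 drew the figures. Alternatives were leaving out each mouse or named pairs of mice, a replicate block, quantile normalisation, median centring, intensity filters, averaging the probe sets of a gene, trend and robust settings, array weights and a threshold of 0.10; leaving out VV replicates 1 and 2 together, and all alternatives for the surrounding lists and markers, were added after seeing the data.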

Additional observations from a re-analysis of the deposited data

Results flagged for a closer look

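Of 68 groups of 5 mice examined, those of each of the 33 members and of the probe set of Cpt1b and Gm44502 in FF and in VV mice, 2 held a mouse far from the rest, and chance flags about 1 in 20. Bdh1 read 6.11 in FF replicate 2, where the nearest other FF mouse had 6.32, a gap of 76.0% of the range of the group. In VV replicate 1 Bdh1 read 7.92, where the nearest other VV mouse had 6.55, a gap of 81.7% of the range. That mouse also had the highest liver marker mean (3.52); the part of liver RNA in the value was not tested.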

How the results depend on the processing

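The median difference of the members stayed positive under every alternative run, between 0.190 and 0.276, and the count of members called lower in FF stayed at 0 in limma, with 1 to 3 lower at an unadjusted p under 0.05. The number called higher, 4 with all mice, was more fragile. It was 9 with array weights, 6 after median centring, 12 at an adjusted p of 0.10, 2 after quantile normalisation and 1 with FF replicate 1 and VV replicate 1 left out. It was 0 with VV replicates 1 and 2 left out (20 higher at an unadjusted p under 0.05). With single mice left out it ran from 0 to 9. Genes called among all tested, 148 with all mice, came to 383 with array weights, 338 after median centring, 230 above the 25th percentile of intensity, 355 above the median and 704 at an adjusted p of 0.10. They came to 95 after quantile normalisation, 28 without FF replicate 1 and VV replicate 1, and 8 without VV replicates 1 and 2, and ran from 7 to 379 with single mice left out. Genes of the surrounding lists called higher, 7 with all mice, came to 13 with array weights, 14 at an adjusted p of 0.10, 1 without FF replicate 1 and VV replicate 1 and 0 without VV replicates 1 and 2 (44 at an unadjusted p under 0.05), and ran from 0 to 12 with single mice left out. Thermogenic markers called, 5 with all mice, came to 7 with array weights, 3 without FF replicate 1 and VV replicate 1 and 1 without VV replicates 1 and 2, and ran from 1 to 7. The fits with mice left out use fewer samples; the cause of the other changes was not tested.

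With the replicate block 0 members passed (17 higher at an unadjusted p under 0.05) and 5 genes of all tested did, 1 gene of the surrounding lists and 0 thermogenic markers passed (38 and 9 at an unadjusted p under 0.05), the probe set of Cpt1b and Gm44502 had an adjusted p of 0.156, and its difference from Cpt1a was 2.952 with p = 0.0625 in an exact test of sign flips over the 5 pairs, the smallest that test allows. Deviations of mice with the same number correlated at 0.102, 0.011, -0.083, -0.264 and -0.151, and 1 of 5 FF mice correlated best with its own number. The sample titles give only a number, and these correlations, each from 1 pair of arrays, cannot exclude a pairing behind it. Over the 33 members and 20 alternatives, 657 values in all, 591 kept direction and call, 44 lost a call, 16 gained one and 6 turned sign. Most members were not called with all mice, and only the 4 called ones could lose a call. Of 20 alternatives each, the call was kept in 11 for Eci1, 10 for Hadha, 8 for Acadvl and 7 for Crat. The sign turned for Acsl6 (-0.043 without FF replicate 1 and VV replicate 1, -0.031 without VV replicates 1 and 2, -0.025 to 0.050 with single mice left out) and Slc22a5 (-0.009 to 0.101 with single mice left out); neither was near the threshold.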
